A study of Mus musculus with 12 samples.

Results

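The genes described here are the 9 that write, maintain or erase DNA methylation in the mouse: the de novo methyltransferases Dnmt3a and Dnmt3b, their cofactor Dnmt3l, the maintenance methyltransferase Dnmt1 with its recruiter Uhrf1, the dioxygenases Tet1, Tet2 and Tet3, and the glycosylase Tdg. They were chosen by name. For each name the assembled locus whose transcripts match the reference gene, or share a splice junction with it, was taken, and every name had 1 such locus. All 9 passed the filter on low values, and they are 9 of the 17974 loci tested and of the 79655 counted loci that have a position.

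DNA methylation is the addition of a methyl group to cytosine, in mammals mostly where a cytosine is followed by a guanine (CpG). Dnmt3a and Dnmt3b place new marks, and Dnmt3l, which has no catalytic activity of its own, stimulates them. Dnmt1 copies the marks onto the new strand behind the replication fork, where Uhrf1 recognises the hemimethylated site. The TET enzymes oxidise methylated cytosine, and Tdg excises the more oxidised forms so that base repair can restore an unmodified cytosine. Cells of the early embryo pass from a state of low methylation in the inner cell mass to a highly methylated epiblast around implantation, and embryonic stem cells (ESCs) and their first derivatives are a common model of that step.

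All libraries came from 1 mouse ESC line of C57BL/6 background in which a knocked-in EGFP marks cells that express Eomes, a T-box factor of the mesendoderm (ME). The ESC group was harvested undifferentiated at day 0, from cultures on mouse embryonic fibroblast feeders in ES cell medium with leukemia inhibitory factor. The other groups were embryoid bodies, sorted at day 3 by EGFP into cells positive (Eo+) and negative (Eo−) for the reporter. They grew in hanging drops of a differentiation medium, IMDM with serum, 1-thioglycerol and L-ascorbic acid. No leukemia inhibitory factor is listed for that medium. Medium and differentiation thus differ together between ESC and both day 3 groups, and their parts cannot be told apart. Each group held 4 poly(A) RNA libraries, numbered 1, 2, 5 and 6, from what the methods describe as separate differentiation sets. A single reporter line was used, so the spread between libraries is that of cultures of 1 line.

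Total locus counts ranged from 648413022 to 837308168 per library. At that depth 3 counts amounted to at most 0.00468 CPM, the read count scaled by a TMM-adjusted library size, and the lowest count of a member in any library was 1592, for Tet2 in Eo+ replicate 6. Eomes was at 36.4 to 57.1 CPM in ESC, 116 to 168 CPM in Eo− and 447 to 642 CPM in Eo+ libraries. Summed over 6 ME markers the range was 92.0 to 287, 249.6 to 511 and 1719 to 2972 CPM, and over 8 pluripotency markers 3009 to 3921, 1299.8 to 1653 and 541 to 829 CPM, in the same order. The summed level of 8 fibroblast markers, as feeder cells express, was 91.7 to 229 CPM in ESC libraries, against 25.8 to 35.8 CPM in Eo− and 18.3 to 30.4 CPM in Eo+ libraries. All 7 tested fibroblast markers were lower in Eo+ than in ESC libraries, and in Eo− libraries 5 were lower, Dcn was not called and Thy1, which is not limited to fibroblasts, was higher. Of these 7, 3 were under the filter on low values in Eo+ libraries (Col3a1, Dcn and S100a4) and 2 of them in Eo− libraries too (Col3a1 and S100a4). They passed it only through a group where they were higher, so the counts of lower markers are no support. S100a4, a fibroblast marker, had a mean of 11.9 CPM in ESC and of 0.0104 and 0.00745 CPM in Eo− and Eo+ cells. The sum of 6 visceral endoderm markers was 82.8, 4.47, 40.3 and 16.9 CPM in Eo+ replicates 1, 2, 5 and 6, an uneven group whose replicate 2 was within the range of the other groups, and lay between 2.59 and 12.1 CPM in ESC and Eo− libraries. That of 5 blood and endothelium markers was 2.57 to 5.05 CPM in ESC and 88.3 to 400.4 CPM in Eo+ libraries. In Eo− replicates 1, 2, 5 and 6 it was 207, 33.0, 15.8 and 34.0 CPM, again uneven. Much of the Eo+ sum was Kdr, which the paper lists among ME genes (mean 199 CPM, against 22.8 CPM in Eo−). Between the fractions Kdr and Tal1 were higher in Eo+, Hba-x was lower, and Hbb-bh1 and Cdh5 were not called. The part of these other cells in the results below was not tested, and in such bulk libraries fewer cells of a type cannot be told apart from less RNA per cell.

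The start regions of 4 of the members that moved in both ESC comparisons are shown, as their windows differ widely in CpG count. Tet3 moved in both too and is not printed. Each is the RefSeq window from 250 bases before to 50 after an annotated start (GRCm38.p6, the assembly also called mm10), 300 bases 5′ to 3′ on the strand of the gene, with every CG in capitals. The Tet2 window is chr3:133544341-133544640, minus strand, that of Dnmt3b is chr2:153649199-153649498, plus strand, that of Tet1 is chr10:62887275-62887574, minus strand, and that of the first of 3 Dnmt3l starts is chr10:78042037-78042336, plus strand.
Tet2: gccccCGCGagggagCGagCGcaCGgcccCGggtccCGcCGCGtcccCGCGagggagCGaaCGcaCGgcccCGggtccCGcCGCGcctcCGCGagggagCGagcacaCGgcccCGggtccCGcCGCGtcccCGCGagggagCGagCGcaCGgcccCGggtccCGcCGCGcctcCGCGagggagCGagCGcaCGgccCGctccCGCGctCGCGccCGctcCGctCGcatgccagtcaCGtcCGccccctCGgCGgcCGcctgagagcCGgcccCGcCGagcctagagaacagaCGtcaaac
Dnmt3b: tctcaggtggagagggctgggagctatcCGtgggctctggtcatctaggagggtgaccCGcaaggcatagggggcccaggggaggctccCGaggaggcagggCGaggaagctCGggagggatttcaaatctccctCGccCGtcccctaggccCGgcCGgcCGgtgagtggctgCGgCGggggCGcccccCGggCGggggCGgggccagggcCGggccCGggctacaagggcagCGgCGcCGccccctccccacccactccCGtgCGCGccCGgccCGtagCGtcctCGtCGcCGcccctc
Tet1: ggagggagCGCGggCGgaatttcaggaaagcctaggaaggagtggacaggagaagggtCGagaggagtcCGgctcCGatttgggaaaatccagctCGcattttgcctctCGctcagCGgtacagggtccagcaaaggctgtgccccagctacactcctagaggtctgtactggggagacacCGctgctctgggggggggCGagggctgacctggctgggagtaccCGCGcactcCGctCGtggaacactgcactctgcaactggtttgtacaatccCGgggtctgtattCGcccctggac
Dnmt3l: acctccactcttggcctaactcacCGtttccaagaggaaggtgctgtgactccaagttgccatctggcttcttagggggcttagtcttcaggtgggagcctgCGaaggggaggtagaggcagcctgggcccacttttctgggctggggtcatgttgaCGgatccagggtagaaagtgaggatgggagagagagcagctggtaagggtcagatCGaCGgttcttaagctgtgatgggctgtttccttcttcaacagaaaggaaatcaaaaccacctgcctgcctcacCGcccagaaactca
The Tet2 window holds 57 CG, a count that 0.152% of all 32851 RefSeq windows reach, and the Dnmt3b window holds 30, reached by 11.7%. Tet1 has 17 (31.4% of windows have as many) and the Dnmt3l window 6 (56.4%), close to the median of 7 over all windows, of which 94.6% hold at least 1. The other Dnmt3l starts have 4 and 3. CG reads the same on both strands, and the motif overlaps no other searched here. The RefSeq start of Tet1 lies 181 bp from the nearest start in the assembly, so the window may not be the start used in these cells. Of the members not printed, Dnmt3a has 46 and 47 CG at its upstream starts and 18 at an internal start, Tet3 and Tdg have 22 and 26, the Dnmt1 starts 2, 12 and 33, and the Uhrf1 starts 12 and 33. These are counts of letters, and methylation was not measured.

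Which members change as pluripotent cells commit to the ME was asked by Eo+ vs ESC. Of the 9, 5 passed the limma test at an adjusted p of 0.05 (background 71.9% of all loci tested), with Dnmt3b and Tet3 higher (background 35.7% higher) and Dnmt3l, Tet1 and Tet2 lower (background 36.2% lower). Eo− vs ESC asked the same of cells from the same embryoid bodies without reporter expression. There 6 passed (background 62.4%): Dnmt3a, Dnmt3b and Tet3 were higher (background 31.0%), and Dnmt3l, Tet1 and Tet2 were lower (background 31.4%). Between the sorted fractions, Eo+ vs Eo−, 4 passed (background 47.6%), none higher (background 22.9%) and Dnmt3a, Dnmt3b, Dnmt3l and Tet1 lower (background 24.7%). The libraries of the groups compared did not overlap for 5, 6 and 4 members, against 64.4%, 56.0% and 45.9% of all loci tested. The median log2 fold change of the 9 was -0.14, 0.04 and -0.20 in the order above, and that of all loci tested was 0, 0.01 and -0.02. Both ESC comparisons share the same 4 ESC libraries.

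**Figure D1:**
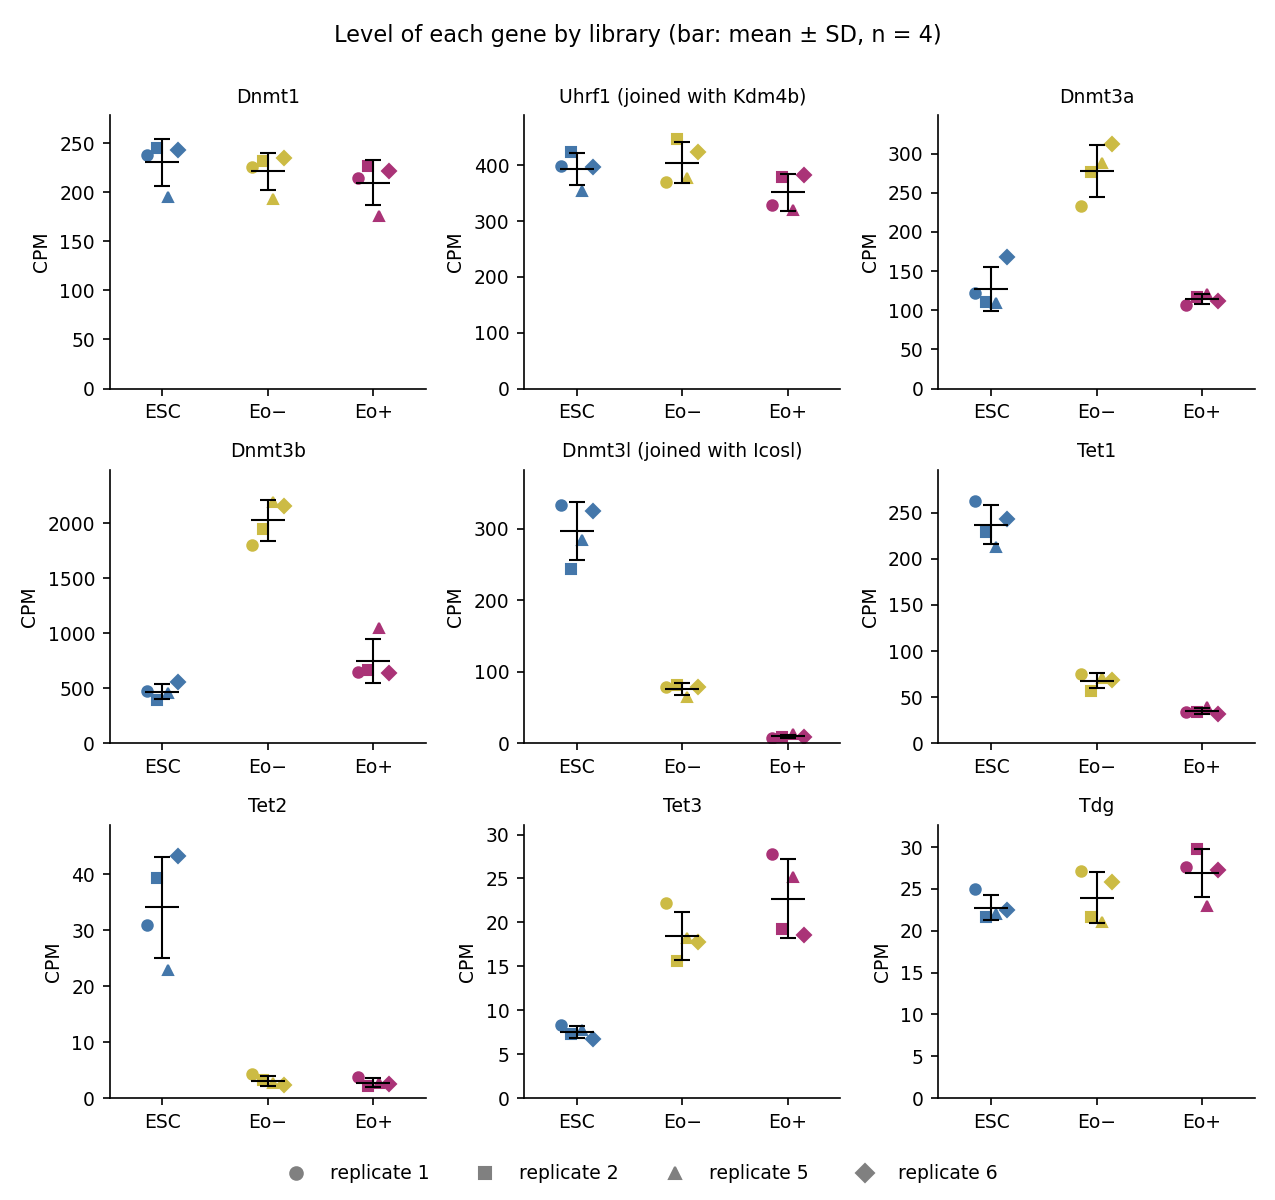
Level of each of the 9 genes in every library, in CPM on linear axes that start at 0, with 4 ESC, 4 Eo− and 4 Eo+ libraries marked by replicate number and bars for the mean ± SD. Dnmt3a and Dnmt3b peak in Eo− libraries, Dnmt3l and Tet1 step down from ESC to Eo− to Eo+, Tet2 is low in both day 3 groups, and Eo+ replicate 5 stands above the other Eo+ libraries for Dnmt3b.

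Dnmt3b, the de novo enzyme best known from the implanting epiblast, had the highest level per length in every group among the members compared. Dnmt3l and Uhrf1, whose loci are joined with a neighbouring gene, were left out of that comparison. It is on chromosome 2 at chr2:153649384-153687730, plus strand (mm10, as all locus positions here). Its level was 474, 391, 457 and 553 CPM in ESC replicates 1, 2, 5 and 6, 1799.9, 1949.8, 2196 and 2155 CPM in Eo− and 645, 668, 1046 and 637 CPM in Eo+ libraries. The groups did not overlap, with Eo− at the top, ESC at the bottom and Eo+ replicate 5 well above the other 3 Eo+ libraries. The summed level of 4 primed epiblast markers (Fgf5, Otx2, Pou3f1 and Sall2) was 68.9 to 106 CPM in ESC and 431 to 586 CPM in Eo− libraries, and Eo+ replicate 5, at 533 CPM, lay above Eo+ replicates 1, 2 and 6, which had 310.4 to 378 CPM. All 4 of these markers were higher in Eo− vs ESC, and 3 were higher and 1 lower in Eo+ vs ESC. Between the fractions, where Dnmt3b was lower in Eo+, they were split: Pou3f1 and Sall2 were lower (-3.41 ± 0.26 and -1.47 ± 0.12, limma adjusted p = 6.38e-07 and 1.08e-06), Fgf5 was higher (0.67 ± 0.22, limma adjusted p = 0.0216) and Otx2 gave -0.21 ± 0.20 (limma adjusted p = 0.398). Their part in the Dnmt3b values was not tested. The Dnmt3b means were 469 ± 66.9, 2025 ± 185 and 749 ± 198 CPM (SD, n = 4 each). Dnmt3b rose 4.34-fold in Eo− vs ESC (log2 fold change 2.12 ± 0.14 SE, limma adjusted p = 6.82e-08) and was 2.76-fold lower in Eo+ than in Eo− cells (-1.46 ± 0.14, limma adjusted p = 3.91e-06). Against ESC the rise in Eo+ was smaller, 0.66 ± 0.15 (limma adjusted p = 0.00125), and 51.0% of all loci tested had a larger absolute change. Without Eo+ replicate 5 it was 0.50, with a limma adjusted p of 0.000869.

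Dnmt3a, the other de novo enzyme, rose in Eo− cells and gave no called change in Eo+ cells. Its locus is chr12:3806007-3914880, plus strand. It was at 122, 110.2, 109 and 168 CPM in ESC replicates 1, 2, 5 and 6, 233, 277, 288 and 313 CPM in Eo− and 107, 117, 121 and 111 CPM in Eo+ libraries. Every Eo− library was above all others, while ESC and Eo+ libraries overlapped. The rise in Eo− vs ESC was 1.14 ± 0.12 (limma adjusted p = 3.57e-06) and the difference in Eo+ vs Eo− was -1.28 ± 0.12 (limma adjusted p = 3.94e-06). Eo+ vs ESC gave -0.13 ± 0.13, with a 95% interval of -0.41 to 0.14 and a limma adjusted p of 0.363. Dnmt3a has a long and a short form from different starts, which the counts per locus do not separate. Over the 12 libraries log2 CPM of Dnmt3a and Dnmt3b had a Pearson r of 0.90, a description of libraries that fall into 3 clusters.

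A short antisense transcript lies over the start of Dnmt3b. This annotated noncoding locus, Dnmt3bos (chr2:153648690-153650286, minus strand), had means of 0.195 ± 0.0643 CPM in ESC, 0.560 ± 0.0143 CPM in Eo− and 0.269 ± 0.0694 CPM in Eo+ libraries. It was higher in Eo− vs ESC by 1.59 ± 0.25 (limma adjusted p = 0.00011) and lower in Eo+ vs Eo− (-1.09 ± 0.24, limma adjusted p = 0.00227). For Eo+ vs ESC its value was 0.50 ± 0.28 (limma adjusted p = 0.118). Reads were counted by strand. Dnmt3b, on the other strand, had far higher means of 469, 2025 and 749 CPM in ESC, Eo− and Eo+ libraries. Whether some of its reads were assigned to the wrong strand was not tested, so the Dnmt3bos values may not be those of a separate transcript.

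Dnmt3l, the cofactor of the de novo enzymes, had the largest fall of the 9 in Eo+ cells. In the assembly its locus (chr10:78041947-78079614, plus strand) is joined with the neighbouring gene Icosl, which encodes a costimulatory ligand of T cells, so the counts hold both genes and cannot be split. The joined locus was at 333, 244.5, 285 and 326 CPM in ESC replicates 1, 2, 5 and 6, 78.5, 82.3, 64.6 and 79.5 CPM in Eo− and 7.99, 9.41, 13.2 and 9.13 CPM in Eo+ libraries. The groups were far apart and did not overlap. The fall was 3.88-fold in Eo− vs ESC (-1.96 ± 0.11, limma adjusted p = 2.15e-08) and 30.3-fold in Eo+ vs ESC (-4.92 ± 0.16, limma adjusted p = 7.87e-11). Eo+ and Eo− cells differed by -2.96 ± 0.17 (limma adjusted p = 7.52e-08), and 6.12% of all loci tested had a larger absolute difference.

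Aire, a transcription factor best known from the thymus, is on the opposite strand, and its locus (chr10:78012055-78043700) covers the first Dnmt3l start printed above. It averaged 9.92 ± 5.56 CPM in ESC, 2.97 ± 1.16 CPM in Eo− and 0.165 ± 0.0828 CPM in Eo+ libraries. It passed the test in all comparisons, with -5.8 ± 0.70 for Eo+ and -1.61 ± 0.41 for Eo− against ESC (limma adjusted p = 4.9e-06 and 0.00389) and -4.19 ± 0.73 between the fractions (limma adjusted p = 0.000398).

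Dnmt1 and Uhrf1, which keep existing methylation through replication, stayed within a narrow band. Dnmt1 (chr9:20907206-20959888, minus strand) was at 238, 246, 195 and 244 CPM in ESC replicates 1, 2, 5 and 6, 225.5, 232, 194 and 235 CPM in Eo− and 215, 227, 176 and 221 CPM in Eo+ libraries. All groups overlapped, and replicate 5 was the lowest library in each. Against ESC the changes were -0.14 ± 0.10 for Eo+ and -0.06 ± 0.10 for Eo−, and between the fractions -0.08 ± 0.10, with limma adjusted p of 0.226, 0.634 and 0.523. In all 4 pairs of the same number Eo+ was below ESC, and with the replicate number as a block that change passed (limma adjusted p = 0.0109). The 95% intervals all lay between -0.35 and 0.15.

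The Uhrf1 locus (chr17:56303270-56403776, plus strand) is joined in the assembly with Kdm4b, which encodes a histone demethylase, and its counts hold both genes. It was at 398, 423, 353 and 397 CPM in ESC replicates 1, 2, 5 and 6, 370.2, 447, 377 and 424 CPM in Eo− and 328, 378, 319 and 382 CPM in Eo+ libraries. The groups overlapped, and in each of the 4 pairs of the same number the Eo+ library was below the Eo− library. The difference in Eo+ vs Eo− was -0.20 ± 0.08 (limma adjusted p = 0.0615), and with the replicate number as a block it passed (limma adjusted p = 0.00536). Eo+ vs ESC gave -0.16 ± 0.08 (limma adjusted p = 0.0992, and 0.0111 with the block) and Eo− vs ESC 0.04 ± 0.08 (limma adjusted p = 0.688).

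**Figure D2:**
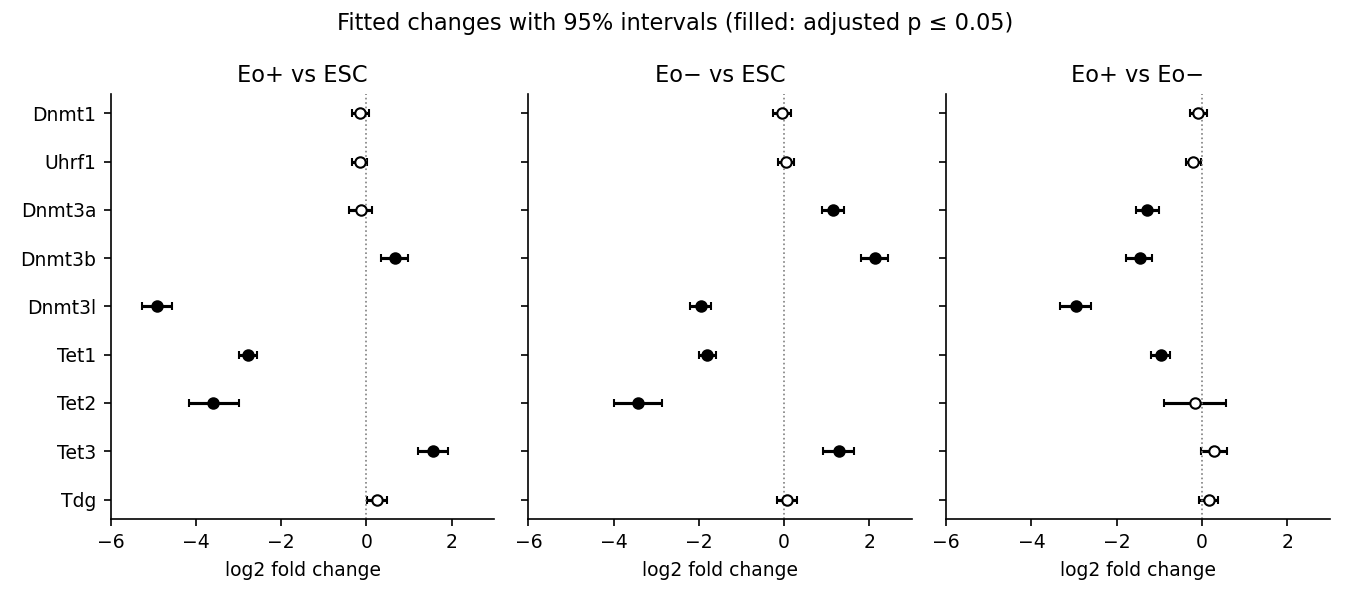
Fitted log2 fold changes of the 9 genes for each fraction against ESC and for Eo+ against Eo−, from limma-voom, with 95% intervals as bars, n = 4 libraries a group, and filled points for an adjusted p of at most 0.05. Dnmt3l, Tet1 and Tet2 lie left of 0 and Tet3 right of 0 in both ESC comparisons, and the 4 filled points of Eo+ vs Eo− are all left of 0; the loci of Uhrf1 and Dnmt3l hold a joined neighbour.

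Tet1, the main TET enzyme of ESCs, fell in steps. Its locus is chr10:62804570-62899118, minus strand, and contains the small annotated gene Gm26479. It was at 263, 229, 213 and 244 CPM in ESC replicates 1, 2, 5 and 6, 75.0, 56.9, 71.0 and 68.9 CPM in Eo− and 33.6, 34.3, 39.3 and 31.4 CPM in Eo+ libraries. No library of a group overlapped another group. Tet1 fell 3.5-fold in Eo− vs ESC (-1.81 ± 0.09, limma adjusted p = 7.13e-09) and 6.85-fold in Eo+ vs ESC (-2.78 ± 0.10, limma adjusted p = 1.44e-10). It was also lower in Eo+ than in Eo− cells, by -0.97 ± 0.10 (limma adjusted p = 9.09e-06). A non-annotated noncoding locus on the same strand overlapping the Tet1 span (XLOC_007840, chr10:62787160-62848064) averaged 0.842, 1.03 and 1.03 CPM in ESC, Eo− and Eo+ libraries and passed in none of the comparisons, with limma adjusted p of 0.279 to 0.943.

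Tet2, which lacks the CXXC DNA-binding domain of its relatives, was low in both day 3 fractions. The locus is chr3:133459305-133544519, minus strand. Its level was 31.0, 39.3, 22.9 and 43.1 CPM in ESC replicates 1, 2, 5 and 6, 4.30, 3.29, 2.65 and 2.30 CPM in Eo− and 3.85, 2.18, 2.67 and 2.48 CPM in Eo+ libraries. Every ESC library was far above all day 3 libraries, and the Eo− and Eo+ libraries overlapped. The fall was 10.8-fold in Eo− vs ESC (-3.43 ± 0.26, limma adjusted p = 1.89e-07) and 12.03-fold in Eo+ vs ESC (-3.59 ± 0.27, limma adjusted p = 5.84e-08). The difference in Eo+ vs Eo− was -0.16 ± 0.34, with a 95% interval of -0.88 to 0.57 and a limma adjusted p of 0.724. Of all loci tested, 5.44% changed more in Eo− vs ESC.

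Tet3, known for the oxidation of methylated cytosine in the zygote, was the TET gene that rose. The locus is chr6:83362373-83459084, minus strand. It was at 8.38, 7.31, 7.76 and 6.77 CPM in ESC replicates 1, 2, 5 and 6, 22.2, 15.6, 18.2 and 17.8 CPM in Eo− and 27.8, 19.2, 25.1 and 18.6 CPM in Eo+ libraries. Both day 3 fractions were above ESC without overlap, and in all 4 pairs of the same number Eo+ was above Eo−, although the fractions overlapped as groups. The rise was 2.43-fold in Eo− vs ESC (1.28 ± 0.17, limma adjusted p = 1.77e-05) and 2.97-fold in Eo+ vs ESC (1.57 ± 0.16, limma adjusted p = 1.19e-06). Eo+ vs Eo− gave 0.29 ± 0.14 (limma adjusted p = 0.101), which passed with the replicate number as a block (limma adjusted p = 0.0108). With that block 6 members in all passed between the sorted fractions, the 4 above with Tet3 and Uhrf1. Bola3, which encodes a mitochondrial iron-sulfur assembly factor, overlaps the 3′ end of Tet3 on the opposite strand and was higher by 0.41 ± 0.10 in Eo− and 0.48 ± 0.10 in Eo+ vs ESC (limma adjusted p = 0.00214 and 0.000456).

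Tdg, the glycosylase that removes oxidised cytosines, varied least of the erasers. At its locus, chr10:82629323-82650799, plus strand, the level was 25.0, 21.6, 22.0 and 22.5 CPM in ESC replicates 1, 2, 5 and 6, 27.2, 21.7, 21.1 and 25.9 CPM in Eo− and 27.7, 29.8, 22.9 and 27.2 CPM in Eo+ libraries. The groups overlapped in every comparison. Against ESC the changes were 0.24 ± 0.11 for Eo+ and 0.07 ± 0.11 for Eo−, and between the fractions 0.17 ± 0.10, with limma adjusted p of 0.0586, 0.59 and 0.202. With the replicate number as a block Eo+ vs ESC passed (limma adjusted p = 0.0235), and Eo+ was above ESC in all 4 pairs of the same number. Reads that align to more than 1 place were left uncounted by the authors, which touches genes with processed copies. The gene 1190007I07Rik overlaps the Tdg start on the opposite strand and passed in Eo− vs ESC (0.47 ± 0.11, limma adjusted p = 0.00217) and Eo+ vs Eo− (-0.73 ± 0.12, limma adjusted p = 0.000173), with -0.26 ± 0.12 in Eo+ vs ESC (limma adjusted p = 0.0655).

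Levels of different genes were compared per length, as FPKM (CPM divided by the summed exon length in kilobases), with the joined loci of Dnmt3l and Uhrf1 left out. In ESC the order was Dnmt3b (90.5 ± 12.9 FPKM, SD), Dnmt1 (36.1 ± 3.73), Tet1 (10.025 ± 0.895), Dnmt3a (7.32 ± 1.61), Tdg (3.87 ± 0.256), Tet2 (1.49 ± 0.395) and Tet3 (0.583 ± 0.0529). Of the neighbours in that order only Tet1 and Dnmt3a overlapped between libraries. In Eo− cells Dnmt3b reached 391 ± 35.7 FPKM, ahead of Dnmt1 at 34.7 ± 2.98 and Dnmt3a at 15.97 ± 1.92, and Tet1 (2.87 ± 0.329) had dropped behind Tdg (4.07 ± 0.515). In Eo+ cells Tet3 (1.75 ± 0.347) and Tet1 (1.46 ± 0.140) overlapped, with Tet2 last at 0.122 ± 0.0321 FPKM. These values depend on the length used: by the longest reference transcript the ESC means were 108 (Dnmt3b), 39.2 (Dnmt1), 16.5 (Tet1), 13.1 (Dnmt3a), 6.50 (Tdg), 3.71 (Tet2) and 0.693 FPKM (Tet3). The order in ESC was the same by that length. In Eo+ cells Tet1 (2.41 FPKM) then came ahead of Tet3 (2.08 FPKM), still overlapping. By the same length the joined Dnmt3l locus, left out of the order, had an ESC mean of 107.8 FPKM (88.7 to 121). This overlapped Dnmt3b (90.4 to 128 FPKM).

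The makeup of the TET family, as shares within each library, therefore differed between the groups. Tet1 supplied 80.9% to 84.9% of the summed TET FPKM in ESC, 62.5% to 66.4% in Eo− and 38.0% to 47.8% in Eo+ libraries. Tet3 supplied 4.11% to 5.64%, 31.1% to 33.8% and 49.0% to 57.4%, and Tet2 had mean shares of 12.3%, 3.10% and 3.65%. The library ranges of Tet1 and of Tet3 did not overlap between groups. Which of them leads in Eo+ cells depends on the length used: with the longest reference transcript in place of all exons of the locus, Tet1 had 50.6% and Tet3 43.1% there. The steps from group to group kept their direction with that length, with 79.0%, 70.0% and 50.6% for Tet1 and 3.34%, 25.0% and 43.1% for Tet3. It raised the mean Tet2 shares to 17.6%, 5.06% and 6.32%.

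Sums over the families moved in opposite directions from ESC to Eo− cells. Dnmt3a and Dnmt3b together were at 97.8 ± 14.4 FPKM in ESC, 407 ± 37.4 in Eo− and 151 ± 38.6 in Eo+ libraries (SD, n = 4), of which Dnmt3b was 92.6%, 96.1% and 95.5%. The 3 TET genes together were at 12.1 ± 1.10, 4.43 ± 0.541 and 3.34 ± 0.453 FPKM. That sum depends on the length used, with 20.9, 6.76 and 4.79 FPKM by the longest reference transcript, by which the Dnmt3a and Dnmt3b sum was 122, 497.5 and 185 FPKM. The ratio of both sums was 6.84 to 9.17 in ESC, 71.2 to 105 in Eo− and 35.0 to 56.2 in Eo+ libraries, in which no group overlapped another. By the other length it was 4.88 to 6.53, 57.1 to 83.5 and 30.2 to 47.8, again without overlap. These are RNA levels and carry no test, since the sums were formed over chosen genes.

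**Figure D3:**
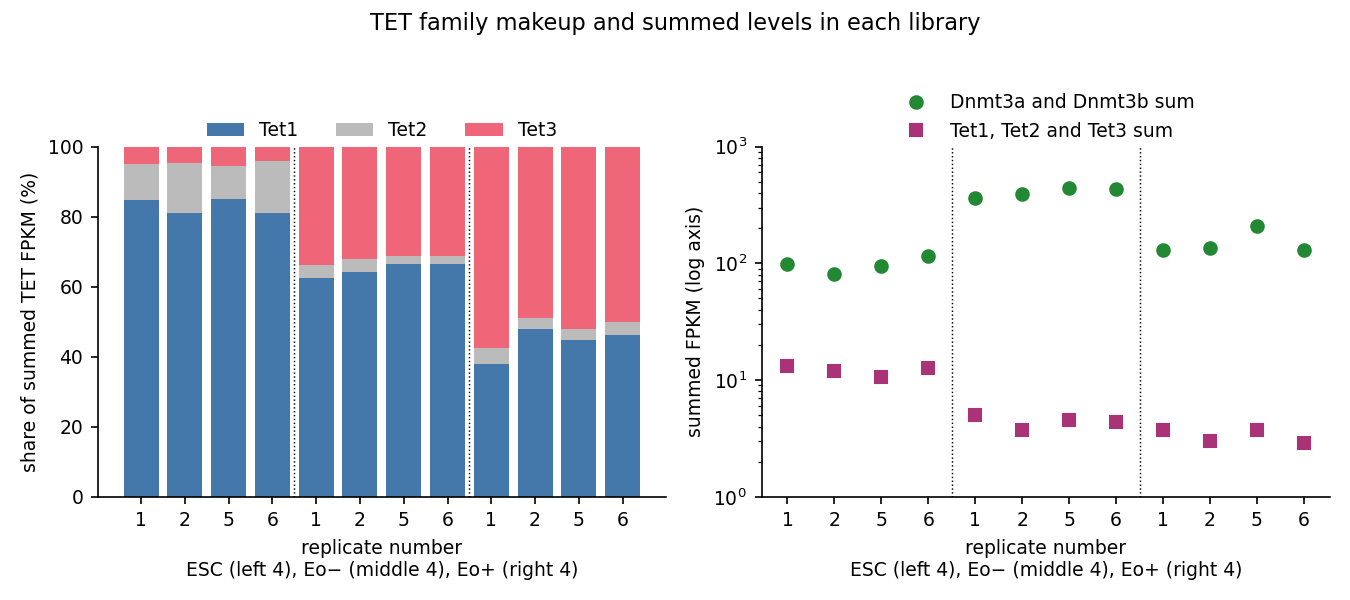
Left, share of Tet1, Tet2 and Tet3 in the summed TET FPKM of each of the 12 libraries, in percent; right, summed FPKM of Dnmt3a and Dnmt3b and of Tet1, Tet2 and Tet3 in the same libraries on a log axis. The Tet3 share grows from at most 5.64% in ESC to at least 49.0% in Eo+ libraries, and the Dnmt3a and Dnmt3b sum is highest in the 4 Eo− libraries.

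The loci whose log2 CPM ran most like each member over the 12 libraries were named from loci with a symbol, 1 gene and a mean of at least 10 CPM. For Dnmt3l they were Hormad1, a meiotic chromosome axis gene, and Gm13247 (Pearson r = 0.9972 each). Klf4, a naive pluripotency factor, led for Tet2 (r = 0.9916) ahead of Skap2 (0.9895), and Dyrk3 and Ttc39b for Tet1 (0.9935 and 0.9934). Tet3 ran with Ccdc50 and Stau2 (0.9884 and 0.9875), Dnmt3a with Zcchc3 and Nav1 (0.9844 and 0.9599) and Dnmt3b with Plekha1 and Fam131b (0.9791 and 0.9757). The least variable members had the weakest matches: Dclre1a and Atg2b for Dnmt1 (0.8848 and 0.8802), Taf2 and Zdhhc5 for Tdg (0.9159 and 0.9058) and Sf3b2 and Timeless for the Uhrf1 locus (0.9525 and 0.9443). Between members, Tet1 had r = 0.95 with the Dnmt3l locus, 0.93 with Tet2 and -0.93 with Tet3. The 12 points are 3 clusters of 4 that share their culture and sort, and many loci reach such values: 271 had r over 0.95 with Tet1, 216 with Dnmt3l and 220 with Tet3.

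The members stand in a wider pathway, for which lists of genes were read from the same fit. Of 12 factors that guide or oppose DNA methylation, 4 were higher and 5 lower (median log2 fold change -0.04) in Eo+ against ESC, 4 and 4 (0.02) in Eo− against ESC, and 2 and 4 (-0.05) between the fractions. Dppa3, which shields the genome from methylation in oocyte and zygote and hinders Uhrf1, fell from a mean of 31.0 CPM in ESC to 6.68 in Eo− and 0.133 in Eo+ libraries (-7.99 ± 0.37 in Eo+ vs ESC, limma adjusted p = 1e-09). Prdm14, a repressor of de novo methyltransferase genes in naive cells, had means of 11.6 ± 2.08, 3.30 ± 2.95 and 0.584 ± 0.284 CPM (SD, n = 4 each; -4.41 ± 0.48 in Eo+ vs ESC, limma adjusted p = 1.91e-06). The Eo− mean rested on replicate 1 at 7.71 CPM, the other Eo− libraries lying at 1.54 to 2.05 CPM, and was 1.83 CPM without it. Zfp57 and Trim28, which hold methylation at imprinted regions, were lower in Eo+ vs ESC by -1.45 ± 0.14 and -1.07 ± 0.09 (limma adjusted p = 6.53e-07 and 1.35e-07).

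Partners of the TET proteins and of base repair were mixed, with 8 of 16 higher and 5 lower (median 0.22) in Eo+ against ESC, 4 and 3 (0.12) in Eo− against ESC, and 3 and 3 (0.11) between the fractions, where 3 in all were called with no filter. Cxxc4, which binds Tet2 and lowers its protein, averaged 0.681 ± 0.195 CPM in ESC, 5.38 ± 1.02 in Eo− and 8.08 ± 2.86 in Eo+ libraries. It passed the filter on low values only through the day 3 groups. Its calls among the 8 higher in Eo+ and the 4 higher in Eo− against ESC are therefore no support. Neil3, a glycosylase of oxidised bases, rose by 1.67 ± 0.12 (limma adjusted p = 2.61e-08). The stress genes Gadd45b and Gadd45a, which have been tied to demethylation, were lower (-2.57 ± 0.27 and -1.97 ± 0.19, limma adjusted p = 1.17e-06 and 5.36e-07).

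Of 9 readers of methylated DNA, 5 were higher and 2 lower (median 0.39) in Eo+ against ESC, 6 and 1 (0.23) in Eo− against ESC, and 5 and 1 (0.22) between the fractions. The 7 called in Eo− vs ESC became 4 with DESeq2 size factors, with no filter or without Eo− replicate 1, and the 6 between the fractions became 3 with no filter or without Eo− replicate 2, 5 or 6 or Eo+ replicate 2 or 6, and 2 without Eo+ replicate 1. Uhrf2, the paralog of Uhrf1, went from 54.2 CPM in ESC to 66.1 in Eo− and 105 in Eo+ libraries (0.97 ± 0.09 in Eo+ vs ESC, limma adjusted p = 3.64e-07). Of the zinc finger readers, Zbtb4 and Zbtb33 were higher in Eo+ vs ESC (1.76 ± 0.23 and 0.96 ± 0.11) and Zbtb38 was lower (-1.14 ± 0.14), with limma adjusted p of 1.03e-05, 2.09e-06 and 5.02e-06.

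Maintenance partners at the replication fork gave 1 higher and 4 lower of 6 (median -0.23) in Eo+ against ESC, 2 and 1 (-0.01) in Eo− against ESC, and 0 and 4 (-0.32) between the fractions. Without Eo+ replicate 5 the 5 called in Eo+ vs ESC became 3. Pclaf, a PCNA-binding factor, rose by 1.29 ± 0.09 in Eo+ vs ESC (limma adjusted p = 2.94e-08), while Usp7, a deubiquitinase that binds Dnmt1 and Uhrf1, Hells, a chromatin remodeller needed for methylation, and the ligase Lig1 were lower (-1 ± 0.06, -0.78 ± 0.10 and -0.26 ± 0.09, limma adjusted p = 4.48e-09, 7.58e-06 and 0.0156). Replication and cell cycle genes moved beside them: of 13, 3 were higher and 7 lower (median -0.17) in Eo+ against ESC, 3 and 3 (-0.05) in Eo− against ESC, and 3 and 6 (-0.18) between the fractions. Ccne1, the G1 to S cyclin, and the helicase subunits Mcm5 and Mcm3 were lower in Eo+ vs ESC (-1.39 ± 0.12, -0.67 ± 0.09 and -0.48 ± 0.09), and the proliferation marker Mki67 was higher (0.49 ± 0.06), with limma adjusted p of 1.34e-07, 1.62e-05, 0.000384 and 9.2e-06. The summed level of the 13 was 4758 to 5363 CPM in ESC, 4422 to 4837 in Eo− and 3863 to 4563 in Eo+ libraries, and its part in the values of Dnmt1 and Uhrf1 was not tested.

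The methyl donor cycle and the supply of the TET cosubstrate were split, with 5 of 13 higher and 6 lower (median -0.14) in Eo+ against ESC, the same numbers (-0.06) in Eo− against ESC, and 3 and 2 (0.10) between the fractions, where 3 in all were called with no filter or without Eo− replicate 2 or 6, and 2 without Eo+ replicate 1. Idh1 and Idh2, which make the ketoglutarate used by TET enzymes, were higher in Eo+ vs ESC (0.85 ± 0.09 and 0.78 ± 0.11), and Shmt1, the cytosolic serine hydroxymethyltransferase, was lower (-0.73 ± 0.06), with limma adjusted p of 9.48e-07, 2.08e-05 and 1.27e-07.

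Germline genes, many of which are known to be silenced through promoter methylation in the embryo, were read from a list of 12, of which 11 were tested. In Eo− against ESC 7 were lower and 2 higher (median -0.68). For Eo+ the counts give no direction for the list, because 5 of the 11 (Dazl, Hormad1, Stk31, Taf7l and Tex101) had a mean of at most 0.1 FPKM there, passed the filter only through the groups where they were high and so had to be lower. With them, 10 were called lower against ESC (median -3.66) and 10 between the fractions (-3.22). The levels of the genes named by size of change are given with no test for Eo+. Hormad1 was at 30.9 ± 8.46, 3.85 ± 0.345 and 0.121 ± 0.0413 CPM (SD, n = 4 each) in ESC, Eo− and Eo+ libraries. Dazl, a germ cell RNA-binding protein, was at 6.52 ± 1.07, 2.499 ± 0.370 and 0.177 ± 0.0267 CPM in that order. For Taf7l and Stk31, genes of spermatogenesis, the means were 3.20 ± 0.567, 1.30 ± 0.107 and 0.0938 ± 0.0368 CPM and 7.39 ± 2.28, 2.93 ± 0.217 and 0.311 ± 0.0771 CPM. The shares of loci called for all lists are to be read against the backgrounds given above.

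**Figure D4:**
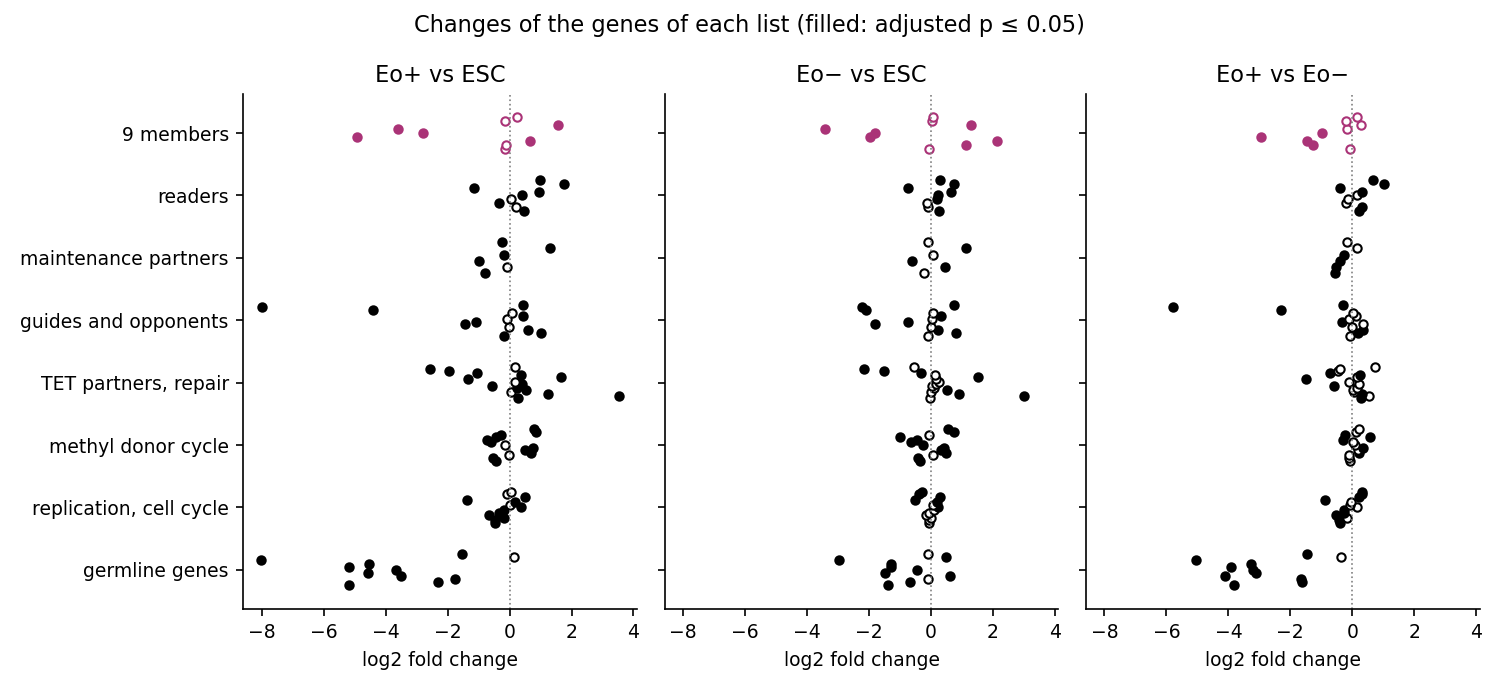
Log2 fold changes of the genes of each list in the 3 comparisons, n = 4 libraries a group, with 1 point per tested gene, filled for a limma adjusted p of at most 0.05 and spread vertically only for legibility. Of 11 germline genes, 10 lie left of 0 with filled points for Eo+ against ESC and against Eo−, 5 of which passed the filter only through groups where they were high, and the lowest point among the guides and opponents is Dppa3 in both.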

How the data were processed

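Poly(A) RNA-Seq libraries (12, paired and stranded) were mapped by the authors to mm10 with STAR, transcripts were assembled with Cufflinks 2.2.1 on the Ensembl annotation, and reads per merged locus were counted by strand with HTSeq 0.6.1. The deposited whole-number counts were used as given. A deposited normalized table was not used. HTSeq set aside 22.4% to 26.2% of alignments as not unique and 2.65% to 3.60% as outside any locus, and these entered no library size.

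Loci with a mean FPKM above 0.1 in at least 1 group that were protein-coding (14224), annotated lncRNA (991) or multi-exon non-annotated lncRNA (2759) were tested, with biotypes from GENCODE. limma 3.58.1 with voom and TMM factors from edgeR 4.0.16 in R 4.3.3 fitted 1 mean per group over all 12 libraries. Tests were two-sided, and p-values were adjusted over all 17974 loci by Benjamini-Hochberg and called at 0.05. The code was tested on simulated data. Counting error alone sets the stated floor of 3 counts.

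CPM and FPKM were computed from counts with TMM-scaled library sizes. The length was that of all exons of a locus, with the longest reference transcript as an alternative. Likeness used log2(CPM + 0.01). Promoter sequences came from RefSeq (GRCm38.p6), in which all 9 members matched.

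Libraries of a number in Eo− and Eo+ deviated together from their group means (r = 0.26 to 0.57, 4 pairs), and each of the 8 correlated best with its own number. Pairs with ESC libraries did not all do so (r = -0.11 to 0.25). The methods name 4 differentiation sets without saying that a number marks one. The block is given beside each call of a member that it changes, and is not given for single genes other than members.

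Named genes are all members, up to 4 called genes per list with the largest change in Eo+ vs ESC and at least 1 CPM, the 2 most alike loci per member, and overlapping or near loci of at least 0.5 CPM. A gene that this rule names is not reported here. Members and lists were chosen with earlier results of these data known. Alternatives were other scalings (library totals, DESeq2 size factors), filters, edgeR and DESeq2 1.42.0 tests, the block, 2-group fits and each library left out.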

Additional observations from a re-analysis of the deposited data

Results flagged for a closer look

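In 2 of 27 sets of 4 libraries, 1 library stood apart from the other 3 by more than Dixon's 95% critical value for the gap divided by the range, which chance passes in about 1 of 20 such sets. Dnmt3b in Eo+ replicate 5 had a ratio of 0.92428, with 1046 CPM where replicates 1, 2 and 6 had 637 to 668 CPM. Dnmt1 in ESC replicate 5 had a ratio of 0.85244, with 195 CPM against 238 to 246 CPM.

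The change from ESC differed between the sorted fractions for 4 members, by the test of the difference itself, which is Eo+ vs Eo−. The change in Eo+ minus that in Eo− was -1.28 for Dnmt3a, -1.46 for Dnmt3b, -2.96 for the Dnmt3l locus and -0.97 for Tet1 on the log2 scale, with limma adjusted p of 3.94e-06, 3.91e-06, 7.52e-08 and 9.09e-06, and the direction was the same in 4 of 4 pairs of the same number.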

How the results depend on the processing

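Under 20 alternatives the 15 called member changes kept their direction and their call in all 300 refits, and the 12 uncalled ones gave 213 refits with the same outcome, 17 that passed and 10 of opposite sign. Library totals made Tdg pass in Eo+ vs ESC and Uhrf1 in Eo+ vs Eo− (limma adjusted p = 0.0343 and 0.018). Uhrf1 in Eo+ vs ESC passed with DESeq2 size factors (limma adjusted p = 0.0434). With at least 1 CPM in 4 libraries Uhrf1 passed in Eo+ vs ESC and Eo+ vs Eo− (limma adjusted p = 0.0179 and 0.0298). The other passes came with the block or with single libraries left out. The replicate block left Eo− vs ESC at 6 members called, raised Eo+ vs Eo− to 6, where Tet3 and Uhrf1 were added (limma adjusted p = 0.0108 and 0.00536), and Eo+ vs ESC to 8, where Dnmt1, Uhrf1 and Tdg were added (limma adjusted p = 0.0109, 0.0111 and 0.0235); it changed no other call of a member, and ESC libraries correlated best with their own number in 4 of 8 checks. Without any filter beyond 1 count, 33778, 27776 and 14761 loci were called in Eo+ vs ESC, Eo− vs ESC and Eo+ vs Eo−, against 12927, 11219 and 8562, because more loci were tested. Leaving out 1 library gave 12382 to 12938, 10292 to 11359 and 7500 to 8859 loci, and 5 to 6, 6 to 6 and 4 to 6 members; the 6 in Eo+ vs Eo− came without Eo− replicate 1. Signs turned for 10 refits of uncalled changes: Dnmt1 in Eo− vs ESC with library totals (0.013), Uhrf1 in Eo− vs ESC with DESeq2 size factors (-0.012), with at least 1 CPM in 4 libraries (-0.004) and with DESeq2 (-0.011), and single libraries left out, which gave -0.202 to 0.005 for Dnmt3a in Eo+ vs ESC, -0.134 to 0.007 for Dnmt1 and -0.010 to 0.084 for Uhrf1 in Eo− vs ESC, and -0.322 to 0.021 for Tet2 and -0.143 to 0.011 for Dnmt1 in Eo+ vs Eo−; the cause was not tested. With the length of the longest reference transcript every family share, sum and ratio moved by more than 1 SD of its libraries except, in Eo+ cells, the Dnmt3a and Dnmt3b sum and the ratio. Summing all loci of a name changed nothing, since each member had 1. Depth limits little here, while joined loci and unresolved isoforms limit Dnmt3l, Uhrf1 and Dnmt3a.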
